A study of Mus musculus with 8 samples.

Results

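The genes described here encode receptors with which CD4 T cells enter, leave and adhere in tissue, together with a transcription factor that controls several of them. They are the chemokine receptor genes Ccr7, Ccr8, Ccr6 and Cxcr4, the egress receptor gene S1pr1, the regulator gene Klf2, and the integrin chain genes Itgb1, Itga4 and Itgal. These 9 genes were chosen by symbol from 57010 annotated genes, and all 9 were among the 13378 genes with enough reads to be tested. Naive CD4 T cells were sorted from peripheral lymph nodes of wild-type C57BL/6 mice, activated in culture, and their RNA was sequenced. The 4 FAC cultures were held for 20 h on coated anti-CD3 and anti-CD28 (4 µg/mL of either) with iron added to the medium, and the 4 control cultures were activated in the same way without added iron. Each of 4 mice gave 1 FAC and 1 control culture, so all cells compared were activated. The labels give neither the iron dose nor the ages of the mice, do not spell out FAC, and name no vehicle for the control cultures, so iron and anything added with it cannot be told apart. The question was how iron acts on T cell activation, read here for the homing and adhesion genes.

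CCR7 follows the chemokines CCL19 and CCL21 into the T cell zone of lymph nodes. S1PR1 senses sphingosine 1-phosphate and draws cells back out into lymph and blood, and KLF2 is a zinc finger factor that keeps S1pr1 active in resting T cells. T cell receptor signals lower KLF2, which holds recently activated cells in the node. Integrins are pairs of an alpha and a beta chain: ITGA4 with ITGB1 binds VCAM-1 and fibronectin, ITGA4 with ITGB7 binds MAdCAM-1 of gut vessels, and ITGAL with ITGB2 forms LFA-1, which binds ICAM-1 and ICAM-2.

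With FAC, Ccr8 fell by 20.2% and Itgb1 fell by 13.6% in the fitted mean, each in 4 of 4 mice. The other 7 genes did not pass the test. Of these, Ccr7, Itga4 and Itgal were higher with FAC in 4 of 4 mice, by 10.3%, 18.9% and 6.95%, and 2 of them, Ccr7 and Itga4, passed once cultures were compared within mice. Ccr6 was lower in 4 of 4 mice and had the largest fitted change of the 9 genes (-29.5%), at an edgeR adjusted p of 0.276 and 0.269 within mice. That fit, with the mouse as a replicate block, called 4 of the 9 genes and 6.87% of all tested genes. S1pr1, Klf2 and Cxcr4 were near the lower end of expression in both groups, with no common direction across mice. The test was edgeR's quasi-likelihood test over all 13378 genes, and an adjusted p is Benjamini-Hochberg adjusted over those genes. A gene was called at an adjusted p under 0.05, which 3.27% of tested genes reached in either direction and 1.10% reached as lower with FAC. The genes were picked with earlier results of these data known, so the 2 of 9 called here are a description and not a test of the group. In bulk RNA, fewer cells of a type and less RNA per cell cannot be told apart.

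The 250 bases before the RefSeq start of transcription are shown for 3 of these genes, because they are the 2 called genes and the alpha chain that pairs with Itgb1. Capitals mark CACCC, the core of the box bound by Krüppel-like factors such as KLF2, or its complement GGGTG on the other strand. Coordinates are those of the RefSeq table, build GRCm38.p6, which is older than the GRCm39 named for the counts. All 3 windows lie on the plus strand, at chr9:120091883-120092132 for Ccr8, chr8:128685404-128685653 for Itgb1 and chr2:79255176-79255425 for Itga4.
Ccr8: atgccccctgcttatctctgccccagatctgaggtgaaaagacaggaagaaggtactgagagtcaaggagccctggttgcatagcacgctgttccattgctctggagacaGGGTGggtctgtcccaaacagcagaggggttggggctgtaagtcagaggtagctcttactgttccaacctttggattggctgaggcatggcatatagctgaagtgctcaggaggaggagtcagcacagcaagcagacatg
Itgb1: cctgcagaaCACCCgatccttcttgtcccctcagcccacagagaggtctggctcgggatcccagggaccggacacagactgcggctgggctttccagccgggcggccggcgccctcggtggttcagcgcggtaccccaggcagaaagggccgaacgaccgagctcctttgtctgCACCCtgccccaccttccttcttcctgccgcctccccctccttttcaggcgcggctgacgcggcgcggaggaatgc
Itga4: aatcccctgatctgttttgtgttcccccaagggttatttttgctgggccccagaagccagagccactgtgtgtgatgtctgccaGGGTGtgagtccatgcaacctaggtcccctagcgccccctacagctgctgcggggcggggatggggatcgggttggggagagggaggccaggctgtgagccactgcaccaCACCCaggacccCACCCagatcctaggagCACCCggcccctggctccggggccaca

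The motif occurred 1 time in the Ccr8 window, 2 times in the Itgb1 window and 4 times in the Itga4 window, both strands counted. It was present in 17087 of 32851 such windows of all genes (52%), so a match is common. The sequence table matched 6 of the 9 genes. It gave 1 match each for Klf2 and Cxcr4 and 0 in either of the 2 windows of Ccr6. Ccr7, S1pr1 and Itgal were not matched.

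Total counts ran from 25410299 to 32368404 in FAC libraries and from 25478740 to 37350654 in control libraries, without a difference in a two-sided exact permutation test (p = 0.83). Of 10 CD4 T cell markers all were detected, with a summed level of 3557 to 3647 TPM in FAC and 3333 to 3444 TPM in control libraries. Of these 10, Cd5 alone was called, as higher with FAC (log2 change 0.14, edgeR adjusted p = 0.0304). The edgeR log2 changes of the 10 ran from -0.04 (Cd4) to 0.14 (Cd5). Markers of CD8 T and NK cells (8 of 9 with any read) summed to 8.15 to 10.7 TPM with FAC and 9.23 to 12.4 TPM in controls, and those of B cells (6 of 8) to 96.2 to 113 and 94.3 to 106 TPM, nearly all from Ighm. Myeloid markers (8 of 12) summed to 2.91 to 5.23 TPM with FAC and 2.23 to 3.06 TPM in controls, and stromal markers (3 of 8) to 3.77 to 5.50 and 3.37 to 4.62 TPM. Most of the CD8 and NK sum was Cd8b1 (mean 8.27 TPM with FAC and 9.92 TPM in controls), whereas Cd8a read 0.1 and 0.055 TPM. Cd68 made up most of the myeloid sum (3.71 and 2.50 TPM) and Pecam1 most of the stromal sum (4.67 and 4.01 TPM). Ncr1, Cd22, Blk, Lyz2, Siglech, S100a8, S100a9, Pdpn, Cdh5, Lyve1, Dcn and Ccl21a had no read in any library. The CD4 marker sums are in TPM, and on log2(TPM + 1) the median log2 change of all tested genes was 0.0346. The part of that scale in the CD4 marker difference, and of the difference in the results below, was not tested. Tfrc, the transferrin receptor gene whose mRNA is unstable in iron-rich cells, was lower in the FAC libraries of 4 of 4 mice (log2 change -0.79, SE 0.04, edgeR adjusted p = 3.97e-07).

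Ccr7, the gene of the lymph node entry receptor, had the highest RNA level per transcript length of the 9 genes. Ccr7 (ENSMUSG00000037944) read 461, 511, 494 and 526 CPM (counts scaled to a common library total with TMM factors) in FAC cultures of mice 1 to 4, against 431, 455, 449 and 470 CPM in their control cultures. Each FAC culture exceeded the control of its own mouse, but FAC 1 lay below control 4, so the groups overlapped. The means were 498 ± 27.9 CPM with FAC and 451 ± 16.3 CPM in controls (SD, n = 4 each), a log2 change of 0.14 (SE 0.04, edgeR adjusted p = 0.102). Within mice the change was 0.10, 0.17, 0.14 and 0.16, and the fit with the mouse as a replicate block called the gene (adjusted p = 0.0132). It was also called without FAC 1 (adjusted p = 0.0305). In the other 15 of 17 alternatives Ccr7 did not pass, with an edgeR adjusted p up to 0.291, without FAC 2.

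CCR8 is a receptor for CCL1, found on activated, type 2 helper and regulatory T cells. Ccr8 (ENSMUSG00000042262) read 25.6, 28.1, 29.2 and 25.7 CPM with FAC, against 33.2, 32.4, 37.4 and 33.2 CPM in controls of mice 1 to 4. The groups did not overlap, and control 3 stood above the other controls. The means were 27.2 ± 1.80 CPM with FAC and 34.0 ± 2.27 CPM in controls (SD, n = 4 each). The log2 change of Ccr8 was -0.33 (SE 0.06, edgeR adjusted p = 0.0172, lower in 4 of 4 mice), with a 95% interval from -0.46 to -0.19 that is not adjusted for the number of genes. The call held without any single library (adjusted p up to 0.0442, without control 3) and ended in limma on log2(TPM + 1), where the change was -0.29 (adjusted p = 0.0877).

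CCR6 is the CCL20 receptor that marks type 17 helper and some regulatory T cells, and the RNA of its gene was near the low end. Ccr6 (ENSMUSG00000040899) rested on 24.0 to 46.1 expected counts per FAC library and 39.6 to 65.9 per control library. Its expected counts were fractional, so RSEM divided some of its reads with another gene. The levels were 1.46, 1.10, 1.58 and 0.939 CPM with FAC, against 1.59, 1.69, 1.65 and 2.32 CPM in controls. Every FAC culture was below every control culture, FAC 3 by a narrow margin, and on the TPM scale the groups overlapped. The log2 change of -0.50 (SE 0.24, edgeR adjusted p = 0.276) did not pass. Within mice it ran from -0.06 in mouse 3 to -1.31 in mouse 4.

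CXCR4 answers CXCL12, a chemokine of marrow and lymphoid stroma. Cxcr4 (ENSMUSG00000045382) had 10, 11, 7 and 13 counts with FAC, against 9, 14, 10 and 10 counts in controls. The levels were 0.351 ± 0.113 CPM with FAC and 0.355 ± 0.0210 CPM in controls (SD, n = 4 each), and the groups overlapped. At this depth the interval of the log2 change ran from -0.81 to 0.75, so changes within it were not detectable.

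S1PR1, the egress receptor, is cleared from the surface by CD69 and its gene is shut off after activation. S1pr1 (ENSMUSG00000045092) read 1.02, 1.69, 2.06 and 2.50 CPM with FAC, against 1.78, 2.50, 1.78 and 2.29 CPM in controls. Mice 1 and 2 were lower with FAC, mice 3 and 4 higher. The log2 change was -0.21 (SE 0.26, interval -0.77 to 0.34, edgeR adjusted p = 0.710). Cd69 read 311 ± 55.0 CPM with FAC and 278 ± 65.7 CPM in controls (SD, n = 4 each). Its log2 change of 0.16 (SE 0.15, edgeR adjusted p = 0.612) passed with the mouse as a replicate block (adjusted p = 0.0164), and it was higher in 4 of 4 mice.

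Klf2 (ENSMUSG00000055148) read 1.91, 3.53, 2.79 and 3.36 CPM with FAC, against 2.14, 1.96, 3.03 and 3.03 CPM in controls. Mice 2 and 4 were higher with FAC and mice 1 and 3 lower, so the groups overlapped. The log2 change was 0.19 (SE 0.22, interval -0.29 to 0.67, edgeR adjusted p = 0.703). Neither Klf2 nor S1pr1 passed in any of the 17 other fits, including each fit with 1 library left out.

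**Figure D1:**
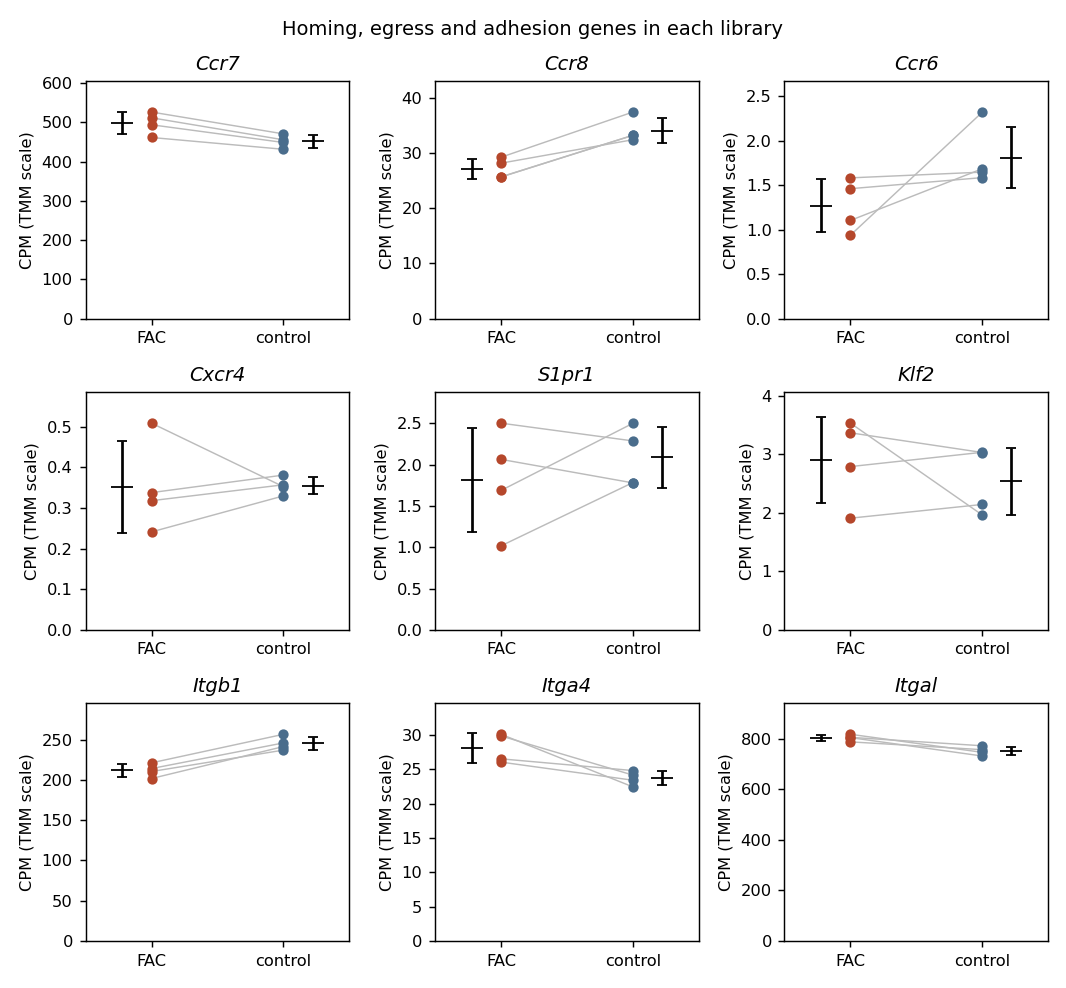
Level of each of the 9 genes (CPM on the TMM scale, linear axes from 0) in FAC cultures on the left and control cultures on the right; points are libraries, grey lines join the cultures of a mouse, and black marks give the mean and SD of 4 libraries. Ccr8 and Itgb1 were lower in every FAC culture, whereas S1pr1, Klf2 and Cxcr4 crossed between mice.

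ITGB1 is the shared beta chain of many matrix-binding integrins. Itgb1 (ENSMUSG00000025809) read 221, 214, 202 and 210 CPM with FAC, against 257, 246, 241 and 237 CPM in controls of mice 1 to 4. Every FAC culture was below every control culture. The means were 212 ± 8.10 CPM with FAC and 245 ± 8.42 CPM in controls (SD, n = 4 each). The log2 change of Itgb1 was -0.21 (SE 0.04, interval -0.29 to -0.13, edgeR adjusted p = 0.0113), and the change within mice ran from -0.26 to -0.17. The call held without any single library, closest to the threshold without FAC 3 (adjusted p = 0.0499). It ended in limma on log2(TPM + 1), with a log2 change of -0.15 (adjusted p = 0.117), and in limma on the deposited normalised signal (-0.20, adjusted p = 0.0527).

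ITGA4 pairs with ITGB1 or ITGB7. Itga4 (ENSMUSG00000027009) read 26.5, 30.1, 29.9 and 26.05 CPM with FAC, against 24.8, 22.4, 24.2 and 23.4 CPM in controls. Its expected counts were fractional in libraries of both groups, such as 834.94 in FAC 1 and 733.43 in control 3. Some of its reads were therefore divided with another gene. The groups did not overlap, in the direction opposite to Itgb1. The means were 28.1 ± 2.15 CPM with FAC and 23.7 ± 1.02 CPM in controls (SD, n = 4 each). The log2 change of 0.25 (SE 0.07, interval 0.11 to 0.39) had an edgeR adjusted p of 0.0574. It passed with the mouse as a replicate block (adjusted p = 0.0322), in DESeq2 (0.0310), without a filter on low counts (0.0487), and without FAC 1 (0.0416) or FAC 4 (0.0322). In the other 12 of 17 alternatives Itga4 did not pass. Among these were edgeR with an effective length offset (adjusted p = 0.147) and without FAC 3 (0.193). Limma on log2(TPM + 1) (adjusted p = 0.300) and on the deposited signal (0.167) also did not call it.

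ITGAL is the alpha chain of LFA-1. Itgal (ENSMUSG00000030830) read 787, 804, 817 and 805 CPM with FAC, against 756, 731, 745 and 771 CPM in controls, again without overlap. The means were 803 ± 12.3 CPM with FAC and 751 ± 17.1 CPM in controls (SD, n = 4 each), and the log2 change was 0.10 (SE 0.03, interval 0.03 to 0.17, edgeR adjusted p = 0.131). DESeq2 called it (adjusted p = 0.0464), edgeR with the mouse as a replicate block did not (adjusted p = 0.0707). Its partner Itgb2 read 214 ± 7.05 CPM with FAC and 228 ± 4.13 CPM in controls (log2 change -0.09, SE 0.04, edgeR adjusted p = 0.199).

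In all, 5 of the 9 genes had groups that did not overlap in CPM, 3 lower (Ccr8, Ccr6, Itgb1) and 2 higher (Itga4, Itgal). Of all tested genes 11.1% did so, 4.89% lower and 6.17% higher with FAC. The median log2 change of the 9 genes was -0.03, beside -0.00143 over all tested genes.

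**Figure D2:**
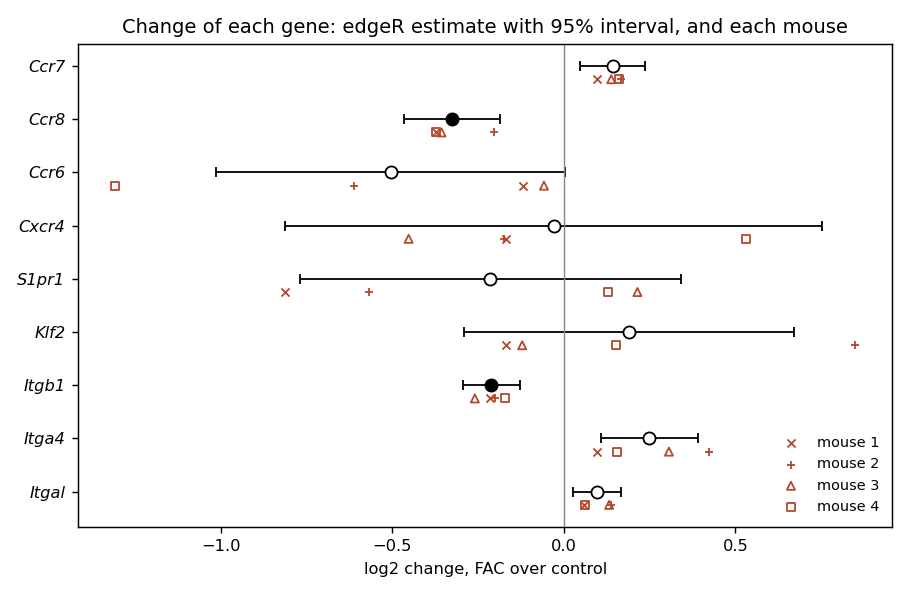
Log2 change of each gene, FAC over control; circles are the edgeR estimates with 95% intervals not adjusted for multiple testing, filled where the adjusted p was under 0.05, and red symbols are the changes within mice 1 to 4. The values of Itgb1, Ccr7 and Itgal lay close together across mice, and the wide intervals of Cxcr4, S1pr1, Klf2 and Ccr6 go with their low counts.

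For the RNA of the beta chains that pair with ITGA4, the share of Itgb1 in the summed TPM of Itgb1 and Itgb7 was taken. This share does not depend on scaling between libraries. It does not measure the protein available to ITGA4, and ITGB1 is shared with other alpha chains. The share was 77.9%, 75.3%, 71.4% and 75.9% with FAC, against 79.7%, 74.7%, 74.9% and 73.8% in controls. The means were 75.1% ± 2.71 with FAC and 75.8% ± 2.69 in controls (SD, n = 4 each), a difference of -0.62 percentage points (two-sided exact permutation test over 70 assignments, p = 0.771; the smallest p possible is 0.0286). From expected counts the difference was -2.58 points (exact permutation p = 0.0857). Itgb7 itself read 46.4 ± 5.11 CPM with FAC and 44.6 ± 1.19 CPM in controls (log2 change 0.06, SE 0.07, edgeR adjusted p = 0.722). In TPM, the scale of the share, the means of Itgb7 had the other direction. They were 29.2 ± 3.77 TPM with FAC and 31.4 ± 3.41 TPM in controls (SD, n = 4 each).

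Per transcript length, in TPM, the order with FAC was Ccr7 (388 ± 20.9), Itgal (242 ± 4.55), Itgb1 (88.0 ± 3.03), Ccr8 (37.8 ± 2.7) and Itga4 (4.53 ± 0.219). Klf2 (2.43 ± 0.606), Ccr6 (1.69 ± 0.433), S1pr1 (0.893 ± 0.306) and Cxcr4 (0.335 ± 0.0759 TPM; SD, n = 4 each) followed. In FAC libraries the ranges of Klf2 and Ccr6, and of Ccr6 and S1pr1, overlapped, and those of the other neighbours did not. In controls the order was the same except that Ccr6 (2.48 ± 0.663 TPM) stood before Klf2 (2.09 ± 0.497 TPM). There the ranges of Itga4 and Ccr6 and of Ccr6 and Klf2 overlapped. Ccr7 and Itgal were above 97% and 95% of tested genes in mean TPM, whereas S1pr1 was above 13.7% and Cxcr4 above 4.32%. Itga4 was above 30.9% of tested genes and its partner Itgb1 above 86.8%.

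**Figure D3:**
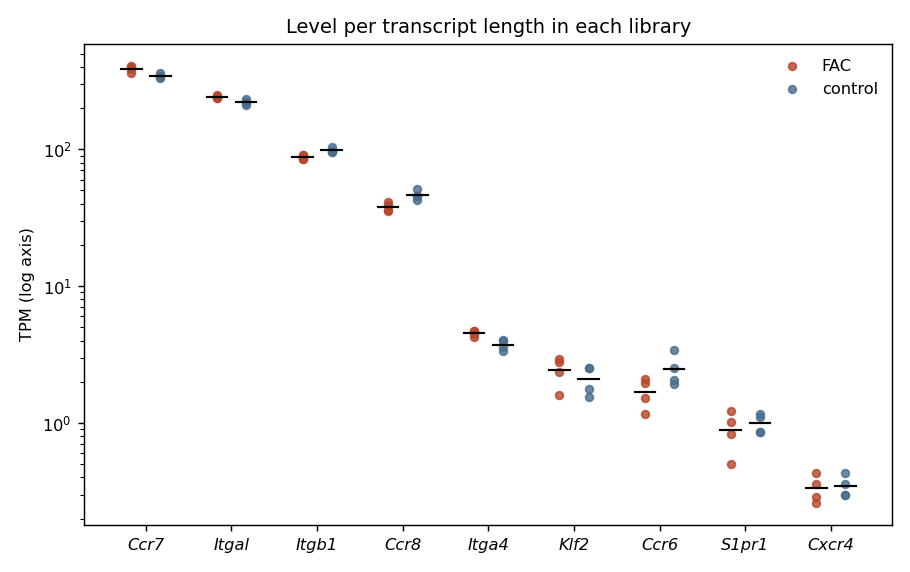
TPM of each gene (log axis) in the 4 FAC libraries, drawn left, and the 4 control libraries, drawn right, with genes ordered by mean over all libraries; horizontal lines are group means. The levels spread from below 0.5 TPM for Cxcr4 to above 300 TPM for Ccr7.

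Among 10529 other tested genes whose mean log2 CPM was 1 or more, those most like Ccr8 over the 8 libraries were Rps6ka1, Tbc1d4 and Trmt12, with Pearson's r of log2 CPM of 0.971, 0.970 and 0.968. Those most like Itgb1 were Tnfrsf4, Erap1 and Mrps5, with r of 0.989, 0.979 and 0.977. These values describe the libraries and include the difference between FAC and control libraries. After centring on the group means, r was 0.865, 0.849 and 0.830 for the first 3 genes and 0.941, 0.926 and 0.854 for the others. These genes were picked as the highest of 10529 in the same 8 libraries, so the centred values are also raised by that choice.

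Beyond the 9 genes, 181 further symbols of homing, egress and adhesion were listed and 119 of them were tested. Of these, 6 were higher and 4 lower with FAC, beside 2.18% and 1.10% of all tested genes, and their median log2 change was 0.02. The count of 10 became 4 without FAC 3 or control 1, and 6 without FAC 2 or control 2. With the mouse as a replicate block 15 were called, 10 higher and 5 lower, beside 6.87% of all 13378 tested genes (544 higher and 375 lower). That fit added Cd69, Dock2, Rasgrp2 and St3gal6 as higher and Chst2 as lower with FAC, each in 4 of 4 mice. Dock2, the gene of a Rac activator in migrating lymphocytes, had a log2 change of 0.15 in that fit (edgeR adjusted p = 0.0316). Rasgrp2, whose product activates RAP1 ahead of integrins, had 0.56 (edgeR adjusted p = 0.0388). The sialyltransferase gene St3gal6 had 0.63 and the sulfotransferase gene Chst2 -0.12 (edgeR adjusted p = 0.0475 and 0.0466). Counts in the lists that follow are from the fit without the block unless it is named.

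Of 27 chemoattractant receptor genes 10 were tested, and Ccr8 was called (median log2 change -0.04), joined by Ccr7 with the mouse as a replicate block (adjusted p = 0.0132). Cxcr3, a receptor gene of type 1 helper cells, read 3.02 ± 0.257 CPM with FAC and 3.41 ± 0.453 CPM in controls (SD, n = 4 each; edgeR adjusted p = 0.579). Cxcr5, which guides cells to follicles, read 2.22 ± 0.165 CPM with FAC and 1.79 ± 0.243 CPM in controls (edgeR adjusted p = 0.394). Ccr4, found with Ccr8 on type 2 helper cells, read 25.4 ± 3.95 CPM with FAC and 27.8 ± 3.28 CPM in controls (edgeR adjusted p = 0.542). Of 14 ligand genes 4 were tested and edgeR called 0 (DESeq2 and limma-voom 0 each, and 1 had an unadjusted edgeR p below 0.05). Of all 13378 tested genes, 2463 had an unadjusted edgeR p below 0.05. The CCR8 ligand gene Ccl1 read 0.307 ± 0.0937 CPM with FAC and 0.616 ± 0.279 CPM in controls (edgeR adjusted p = 0.228).

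Downstream of these receptors, 23 of 25 genes of G protein signalling and desensitisation were tested, with a median log2 change of 0.01. Rgs1 and Rgs16, which encode regulators that shorten G protein signals from chemokine receptors, were lower with FAC in 4 of 4 mice. Rgs1 read 119 ± 7.27 CPM with FAC and 143 ± 6.68 CPM in controls (log2 change -0.27, SE 0.05, edgeR adjusted p = 0.0118). Rgs16 read 84.4 ± 10.8 CPM with FAC and 118 ± 13.5 CPM in controls (-0.48, SE 0.09, edgeR adjusted p = 0.0132). Both were called without any single library, and both calls ended in limma on log2(TPM + 1) and on log2(TPM + 0.1). Pik3r5, a regulatory subunit gene of the kinase PI3K gamma, was higher (0.23, SE 0.05, edgeR adjusted p = 0.0213), a call that ended without FAC 2 (0.0878), FAC 3, control 1, control 2 or control 4.

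Of 17 genes of S1P receptors and S1P metabolism 11 were tested (median log2 change 0.09). Without the replicate block edgeR called 0, as did DESeq2 and limma-voom, and with it edgeR called 1, Cd69. An unadjusted edgeR p below 0.05 was reached by 1 of the 11, beside 2463 of all 13378 tested genes. Of 19 genes around Klf2 and Foxo1, 18 were tested and 2 were higher with FAC (median 0.06). Satb1, a chromatin organiser gene, and Mef2d, a transcription factor gene, were the called genes (log2 change 0.18 and 0.15, edgeR adjusted p = 0.0425 and 0.0417). The Satb1 call ended without FAC 2, FAC 3 (0.162), control 1, control 2 or control 4, and the Mef2d call without any library but FAC 1 (0.172 without FAC 2). Foxo1 (86.8 ± 2.90 CPM with FAC and 85.6 ± 5.02 CPM in controls) and Il7r, a target of that factor (1.90 ± 0.313 and 2.05 ± 0.431 CPM), did not pass (edgeR adjusted p = 0.862 and 0.834; SD, n = 4 each).

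Of 18 integrin alpha chain genes 8 were tested (median 0.12). Without the replicate block edgeR called 0, limma-voom 0 and DESeq2 2, and with it edgeR called 1, Itga4. An unadjusted edgeR p below 0.05 was reached by 3 of the 8, beside 2463 of all 13378 tested genes. Of 8 beta chain genes 4 were tested, and Itgb1 alone was called. Of 26 genes that activate integrins or link them to actin 23 were tested and 2 were higher with FAC (median 0.04). Fermt3, which encodes kindlin-3, an activator that binds beta chain tails, read 182 ± 8.17 CPM with FAC and 158 ± 2.82 CPM in controls (log2 change 0.20, SE 0.04, edgeR adjusted p = 0.0134). Fyb, the gene of the adaptor ADAP, read 49.1 ± 2.36 CPM with FAC and 39.4 ± 3.26 CPM in controls (0.32, SE 0.06, edgeR adjusted p = 0.0166). Both calls ended without FAC 3 (0.0744 for Fermt3 and 0.0755 for Fyb) and without control 1. The expected counts of Fyb were fractional, so some of its reads were divided with another gene.

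Of 17 genes of selectins and their ligands 12 were tested, and Cd44 was lower with FAC (median -0.05). Cd44, the hyaluronan receptor gene that is raised on activated T cells, read 115 ± 5.67 CPM with FAC and 133 ± 8.34 CPM in controls (-0.22, SE 0.05, edgeR adjusted p = 0.0363). It was lower in 4 of 4 mice although the groups overlapped, and the call held only without FAC 1 or control 4 (0.125 without FAC 3). Of 21 other adhesion genes 17 were tested (median 0.01). The tetraspanin gene Cd82 read 307 ± 5.90 CPM with FAC and 258 ± 3.36 CPM in controls (0.25, SE 0.03, edgeR adjusted p = 5.74e-04). Sema7a, which encodes a membrane-anchored semaphorin that binds integrins, read 16.3 ± 1.14 CPM with FAC and 23.4 ± 3.10 CPM in controls (-0.52, SE 0.09, edgeR adjusted p = 0.00958). Both were called without any single library, and both had groups that did not overlap. Cd82 was also called in each of the 9 other alternatives. The Sema7a call ended in limma on log2(TPM + 1), on log2(TPM + 0.1) and on the deposited signal.

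**Figure D4:**
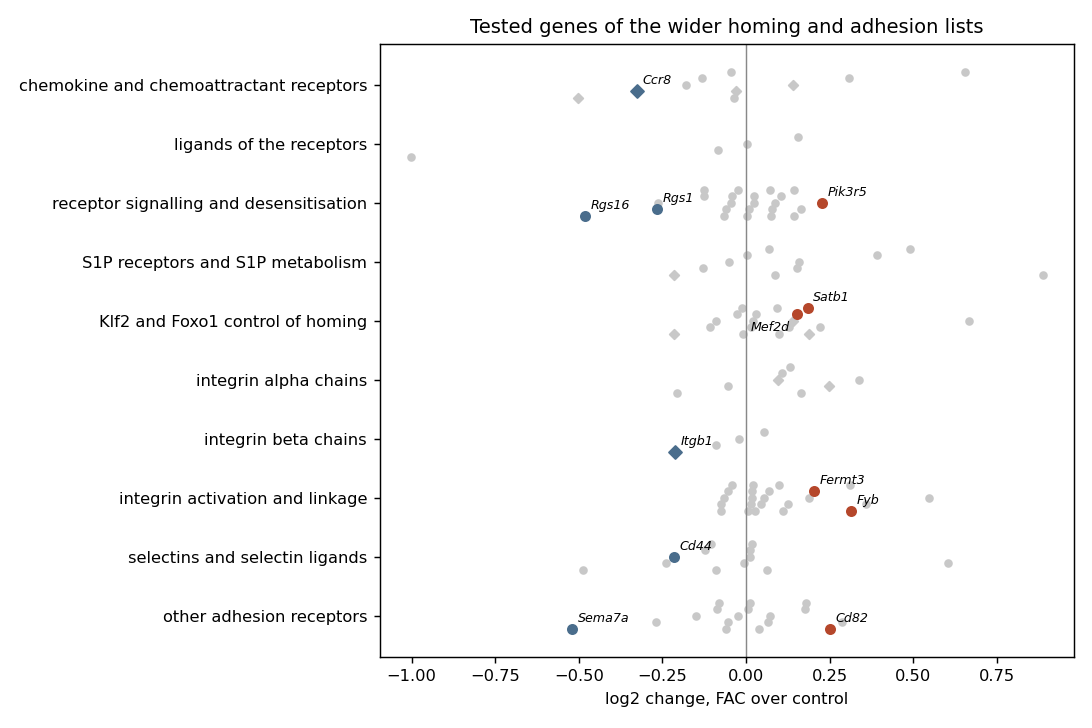
Log2 change, FAC over control, of every tested gene in the wider lists; named points passed the edgeR test, red where higher and blue where lower with FAC, grey points did not, and diamonds are the 9 genes themselves. Called changes stay between -0.52 and 0.32.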

How the data were processed

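The submitters' processing notes name STAR 2.7.6a, RSEM 1.3.1, DESeq2 1.26.0 and the build GRCm39, without roles; the annotation release and strand setting are not given in the sources used here, so reads of antisense genes may not be told apart. Libraries came from 250 ng of total RNA and a stranded mRNA kit, per the labels' protocols. Per the file headers, the authors deposited RSEM expected counts per gene, TPM scaled for length to a common total, and effective lengths. A deposited table holds a normalised signal for 13751 genes, which the authors scaled with gene-dependent factors that the sources used here do not describe. For Cxcr4 the factor went with effective length: 10 counts at length 1235 gave a signal of 11.0 in FAC 1. In FAC 2, 11 counts at length 1654 gave 8.73. The signal and the length offset may therefore not be independent alternatives.

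Expected counts were rounded to whole numbers and tested with edgeR 4.0.16 (R 4.3.3): minimum count 10, minimum total 15, TMM factors, quasi-likelihood test on the group. SE is the absolute log2 change over the square root of F. Intervals are at 95%. The test was first run on counts simulated without differences between mice, and the outcome of that run is not used here. Alternatives used a replicate block, other factors, no filter, DESeq2 1.42.0, limma 3.58.1 (voom, TPM with pseudocounts of 1 and 0.1, and the signal with 1), a length offset, and each library left out. At these depths 3 counts equal 0.0803 to 0.118 CPM, for counting error only.

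The labels give a mouse number to 1 FAC and 1 control culture each, which is the source of the pairing. Deviations from group means correlated between cultures of a mouse with r of 0.137, 0.0165, 0.0647 and 0.139 across 13378 genes, and up to 0.0331 between mice. Libraries within a group varied beyond sampling noise, so each was kept as 1 replicate.

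The 9 genes and the wider lists were chosen with earlier results of these data known. Named were the 9 genes, called genes of each list (at most 6), Il7r, Foxo1, Cd69, Itgb7, Itgb2 and Tfrc, and the 3 genes most like each called one. Ccr4, Cxcr3, Cxcr5, Ccl1, Cd5, Dock2, Rasgrp2, St3gal6, Chst2 and Ccrl2 were added after their values were seen. A pair of listed genes was left out of the lists and is not reported here. Of 233 listed symbols 232 matched, by the deposited table or GENCODE M21. Promoter windows are RefSeq, GRCm38.p6.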

Additional observations from a re-analysis of the deposited data

Results flagged for a closer look

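Of 18 sets of 4 libraries (9 genes in 2 groups), 2 held a library far from the other 3 by Dixon's criterion, which chance gives in about 1 of 20 sets. Control 3 had 37.4 CPM of Ccr8, above the other controls. Without it the log2 change of Ccr8 was -0.28 (edgeR adjusted p = 0.0442). Control 4 had 2.32 CPM of Ccr6, also above the other controls, and without it the log2 change of Ccr6 was -0.36 (edgeR adjusted p = 0.479).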

How the results depend on the processing

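The 438 genes called became 919 with the mouse as a replicate block, 736 without a filter on low counts, 739 in DESeq2, 187 with an effective length offset, 144 and 138 in limma on TPM with pseudocounts of 1 and 0.1, and 156 in limma on the deposited signal. They were 147 to 549 with 1 library left out. Higher and lower calls were 291 and 147 in edgeR but 112 and 32 on log2(TPM + 1), which moved the median of all genes to 0.0346. Of the 9 homing genes, 2 were called, against 4 with the replicate block, 4 in DESeq2, 0 and 0 on the TPM scales (6 and 5 at an unadjusted p under 0.05), 1 on the signal and 2 to 4 with 1 library left out. Of all 13378 tested genes, 2010 and 2009 had an unadjusted limma p under 0.05 on these TPM scales. The 10 further genes became 15 with the replicate block, 7 with the length offset, 3 and 4 on the TPM scales, 4 on the signal and 4 to 11 with 1 library left out; log2(TPM + 1) kept Mef2d, Fermt3 and Cd82.

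Ccr7 passed with the replicate block (0.14) and ran from 0.11 to 0.18 with 1 library left out. In 15 of 17 alternatives Ccr7 did not pass. Itga4 passed with the replicate block, without a filter and in DESeq2 (0.25, 0.24 and 0.24) and ran from 0.21 to 0.28 with 1 library left out. In 12 of 17 alternatives Itga4 did not pass. Itgal passed in DESeq2 (log2 change 0.091). Ccr8 did not pass on the TPM scales (-0.29 and -0.29), nor did Itgb1 (-0.15 and -0.16), which also missed on the signal (-0.20). With 1 library left out, Cxcr4 ran from -0.24 to 0.11, turning sign without FAC 1 (0.01), FAC 3 (0.11) or control 2 (0.01), and the Itgb1 share from -1.54 to 0.70 points, turning sign without FAC 3 (0.62) or control 1 (0.70). With mice as a replicate block the share gave an exact permutation p of 0.75, where 0.125 is the smallest possible. The causes were not tested. S1pr1, Klf2 and Ccr6 kept their direction and did not pass in any of 17 alternatives each.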

Other observations

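Ccrl2, an atypical chemoattractant receptor gene whose protein binds chemerin, was too low for the test and was singled out after its values were seen. It had 5, 9, 4 and 5 counts in the FAC cultures of mice 1 to 4, 23 in all, against 0 in each of the 4 control cultures. A count of 0 allows 0.0803 to 0.118 CPM in the control libraries, and the FAC libraries read 0.138 to 0.276 CPM. In edgeR without a filter on low counts its adjusted p was 0.0114.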
